A study of Mus musculus with 12 samples.

Results

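The genes described here code for potassium channels of the mouse spinal cord and were taken by a single rule, that their symbol starts with KCN. The deposited table listed 67 of them above a spinal cord lesion and 56 below it, among 13647 genes listed above and 12338 below. All 56 were also listed above the lesion, and 65 of the 67 code for channel subunits, while KCNMB4OS1 and KCNMB4OS2 are transcripts from the strand opposite KCNMB4. RNA was sequenced from cord segments of male mice of 4 months that carried human ApoE4 in place of the mouse protein and had received a motor-incomplete contusion at T9. The 12 libraries, 3 in each of 4 groups, were collected 14 days after injury, from a site just above or just below the lesion. Their labels call the mice homozygous or heterozygous for synaptojanin. From the study's design, homozygous was read as synj1+/+ (both synaptojanin 1 alleles normal) and heterozygous as synj1+/- (1 allele inactive). Groups labelled synj1+/+ or synj1+/- below are named by this reading. ApoE4, the injury and male sex were thus shared by all 4 groups, no group was uninjured, and the inactive allele is not stated to be limited to a cell type. Synaptojanin 1 is a phosphatase that removes phosphate groups from PIP2, and the study asked which transcripts differed when its gene dose was reduced.

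Potassium channels let potassium leave the cell, which sets the resting potential, ends action potentials and limits how fast a neuron can fire. The KCNA, KCNC, KCND, KCNH and KCNQ genes code for voltage-gated pores, KCNF, KCNG and KCNS genes for silent subunits that form channels only with other Kv proteins, KCNJ for inward rectifiers, KCNK for K2P leak channels, and KCNMA1, KCNN, KCNT and KCNU1 for channels gated by calcium, sodium or pH. KCNAB, KCNE, KCNIP and KCNMB genes code for auxiliary subunits. Many of these channels, the inward rectifiers and the KCNQ family among them, need PIP2 in the membrane to open. In the spinal cord, Kv1 channels line the axon beside the nodes of myelinated fibres, and Kv3 channels (KCNC) allow fast firing.

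Each value in the table is the authors' value for a whole group, so the spread between the 3 libraries is unknown, no test could be made, and no value below has an error. The lowest value in the table was exactly 1, and the values were read as carrying an offset of 1. A log2 difference is the log2 ratio of the value of the group labelled synj1+/- to that of the group labelled synj1+/+, and "higher" and "lower" refer throughout to the group labelled synj1+/-. A gene was counted as higher or lower at a site when its log2 difference reached 0.322 in that direction, a ratio of 5 to 4 between the group values, called the limit below. SYNJ1 went against this reading of the labels at both sites. Its value was 1905 and 2404 above and 1847 and 2593 below in the groups labelled synj1+/+ and synj1+/-, so groups are named by their labels. A value for the whole gene does not separate reads of an inactive allele from those of a normal allele, and whether labels were exchanged was not tested. The 2 sites were normalized separately, and values set side by side across sites below are therefore not compared as levels. Because tissue was sequenced in bulk, fewer cells of a type and less RNA per cell cannot be told apart.

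Markers of other cells moved with the genotype labels, and their part in the results below was not tested. Below the lesion, all 7 neuron markers listed had differences over 0, from 0.11 to 0.54 (median 0.19), and 2 of the 7 were higher, with a summed value of 8410.5 under the label synj1+/+ and 10582 under synj1+/-. Of 8 microglia and macrophage markers, 6 were lower below the lesion (median log2 difference -0.57, summed value 2710 and 1801), and all 5 fibroblast markers were lower (median -2.91, summed value 354.0 and 48.5). Above the lesion, 0 of 9 neuron markers were higher or lower (median 0.09), 4 of 9 microglia and macrophage markers were lower (median -0.26), all 5 fibroblast markers were lower (median -0.52), and all 4 globin genes were higher (median 2.21, against 0.32 below). Among all genes, 8.06% were higher and 11.5% lower below the lesion, and 4.18% were higher and 7.45% lower above it. The medians above and below were -0.26 and -0.18 for astrocyte markers, -0.11 and 0.03 for the 3 of 7 oligodendrocyte markers listed, -0.12 and -0.16 for their precursors, 0.10 and -0.15 for endothelium, and 0.20 and -0.38 for pericytes and smooth muscle. Schwann cell markers had 1 gene listed above, at 0.88, and 3 below, with a median of -0.54. Markers of neurons, astrocytes, microglia and oligodendrocytes were thus all present in the tissue labelled spinal cord.

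More potassium channel genes were higher than lower below the lesion, and above it their differences divided evenly about 0. Below the lesion 16 of 56 were higher, or 28.6%, where 8.06% of all genes were, and 5 were lower, or 8.93%, where 11.5% of all genes were. Differences were over 0 for 43 of the 56, against 52.8% of all genes, and their median was 0.23 against 0.01. Above the lesion 1 of 67 was higher, where 4.18% of all genes were, and 6 were lower, where 7.45% of all genes were. Differences there were over 0 for 34 and under 0 for 33 (49% of all genes were over 0), with a median of 0.00 and a range of -0.71 to 0.37, compared with -0.81 to 0.60 below. The same pattern was seen in the members with a larger group value of 20 or more, where low values weigh less. Of 32 such members below the lesion, 10 were higher and 1 was lower (6.99% and 9.13% of all genes at such values), and of 41 above, 0 were higher and 2 were lower (2.68% and 5.66%). The excess below the lesion was made up of modest differences: at a fold of 1.5, 1 of 56 members was higher and 2 were lower below (1.16% and 4.38% of all genes), and 0 of 67 were higher and 1 was lower above (0.791% and 1.94%).

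**Figure D1:**
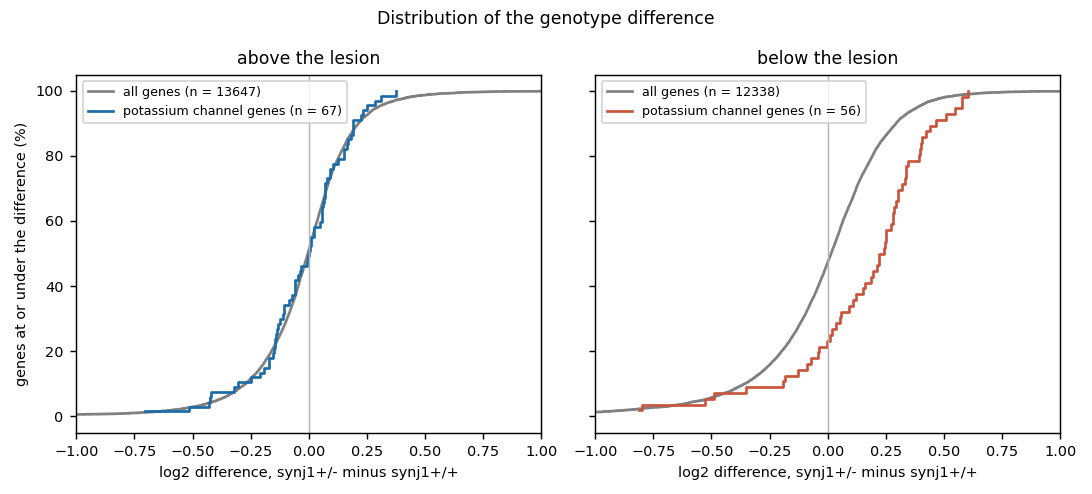
Cumulative share of genes (vertical axis, %) at or under a log2 difference between the groups labelled synj1+/- and synj1+/+ (horizontal axis), for potassium channel genes and all genes at each site; 12338 to 13647 genes make up the grey curves and values beyond 1 in either direction are not drawn. Above the lesion the curves overlie each other, and below it the potassium channel genes lie to the right, with medians of 0.23 and 0.01.

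Genes of the Kv3 family were among those higher below the lesion. KCNC1, KCNC2 and KCNC4 code for channels that open at strongly depolarized voltages and close quickly, which keeps action potentials short in fast-firing neurons. These 3 were higher below the lesion, with log2 differences of 0.34 to 0.51, and did not reach the limit above it.

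KCNC2 had values of 220.3 and 259 above and 148 and 211 below in the groups labelled synj1+/+ and synj1+/-. Its difference was the largest of the 3 at both sites, 0.23 above and 0.51 below. KCNC1 was close to even above, with 375 and 388, and differed by 0.40 below, with 351 and 462. KCNC4 had values of 82.7 and 90.3 above and 66.5 and 83.9 below (0.13 and 0.34). The 2 neuron markers that were higher below the lesion, SNAP25 (0.39) and SYT1 (0.54), were named after their values were seen, and the other 5 lay between 0.11 and 0.20, and whether these Kv3 genes differed beyond a shift of neuronal RNA was not tested.

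The sequences just before a RefSeq start of these Kv3 genes are shown because these genes moved together, beside that of KCNE1L, which was lower at both sites. Each is the 250 bases before the start in the RefSeq promoter table (GRCm38.p6), printed 5′ to 3′ on the gene's strand, and capitals mark GGGCGG on either strand (CCGCCC when read on the other), the core of the GC box:
KCNC1, chr7:46396218-46396467, plus strand: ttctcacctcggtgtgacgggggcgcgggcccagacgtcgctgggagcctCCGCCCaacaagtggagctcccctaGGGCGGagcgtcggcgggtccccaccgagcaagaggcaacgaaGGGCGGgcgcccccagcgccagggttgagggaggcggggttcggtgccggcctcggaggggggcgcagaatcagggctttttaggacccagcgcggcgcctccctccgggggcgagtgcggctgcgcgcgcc
KCNC2, chr10:112269767-112270016, plus strand: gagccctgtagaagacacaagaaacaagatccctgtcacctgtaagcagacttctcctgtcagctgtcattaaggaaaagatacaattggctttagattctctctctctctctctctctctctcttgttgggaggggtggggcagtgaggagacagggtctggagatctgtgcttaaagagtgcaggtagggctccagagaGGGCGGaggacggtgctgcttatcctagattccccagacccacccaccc
KCNC4, chr3:107458899-107459148, minus strand: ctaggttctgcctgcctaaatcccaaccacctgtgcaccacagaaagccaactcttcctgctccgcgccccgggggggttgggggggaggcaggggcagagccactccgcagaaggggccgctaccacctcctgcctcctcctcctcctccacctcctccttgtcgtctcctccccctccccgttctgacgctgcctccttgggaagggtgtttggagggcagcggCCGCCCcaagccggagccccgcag
KCNE1L, chrX:142306199-142306448, minus strand: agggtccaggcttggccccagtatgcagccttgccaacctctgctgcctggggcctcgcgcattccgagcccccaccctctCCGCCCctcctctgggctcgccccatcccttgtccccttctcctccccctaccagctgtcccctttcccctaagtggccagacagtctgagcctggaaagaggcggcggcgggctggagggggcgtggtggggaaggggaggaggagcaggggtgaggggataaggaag

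GGGCGG occurred 3 times before KCNC1 and 1 time each before KCNC2, KCNC4 and KCNE1L. The KCNC1 window held 30 CG pairs, the KCNC4 window 12, the KCNE1L window 9 and the KCNC2 window 2. The median over all windows outside chromosome 18 was 6. KCNC2 has 4 such windows in the table, and the first is printed. Starts in the RefSeq table are not those of the GENCODE gene models: the KCNC1 and KCNC2 windows end 29 and 1104 bases before the GENCODE gene, the KCNC4 window lies within the gene, and 96 bases of the KCNE1L window do. A stretch just after the RefSeq start was found in a GENCODE transcript of the gene for KCNC4 and KCNE1L, and not for KCNC1 and KCNC2. Windows on chromosome 18, which holds KCNG2 and KCNN2, were left out of the counts. Across the 47 potassium channel genes found among the other windows, 31 of 70 windows held the motif, or 44.3%. Of all 32851 windows of the same length outside chromosome 18, whether or not their genes were listed in these data, 32.7% did. The match is thus common to genes that were higher and to a gene that was lower.

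KCNA genes code for the Kv1 channels of axons. KCNA2 had the highest value among them, with 370.3 and 343 above and 391 and 452 below, and did not reach the limit at either site (-0.11 and 0.21). KCNA1, the Kv1.1 subunit that pairs with it beside nodes of Ranvier, was lower above and higher below. Its values were 34.1 and 25.5 above (-0.42) and 28.6 and 36.0 below (0.33). KCNA4 was lower below (5.56 and 4.35, a difference of -0.35), and KCNA3, a Kv1 gene also expressed by microglia and T cells, was lower above at values near the bottom of the table (2.88 and 2.02).

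KCNAB2, which codes for the main cytoplasmic beta subunit of Kv1 channels, had values of 1772 and 1859 above and 2033 and 2492 below. The difference was 0.07 above and 0.29 below, short of the limit. KCNAB1 was likewise even above (0.00) and at 0.28 below. Over the 11 genes of the Kv1 complex of myelinated axons, which adds scaffold and adhesion proteins such as DLG2, CNTNAP2 and ADAM22, the median difference was 0.00 above. Below, where CNTNAP2 was not listed, all 8 genes listed had differences over 0 (0.03 to 0.34, median 0.28), against 52.8% of all genes. Of these, 2, KCNA1 and DLG2, were higher, where 8.06% of all genes were. KCNA1, KCNA2, KCNAB1 and KCNAB2 are among the 8 and were already counted with the potassium channel genes.

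AMIGO1, an adhesion protein bound to Kv2 channels, was higher below, with 48.5 and 65.4 (0.43). The 3 KCND genes, which code for the A-type Kv4 channels of dendrites, had a median of -0.01 above and 0.32 below. KCND3 was the highest of the 3 and lay just short of the limit below the lesion, with 25.03 and 22.2 above and 15.004 and 18.7 below (0.319), and KCND1 passed it at lower values, with 6.67 and 8.74 (0.39). KCNIP1, a calcium-binding auxiliary subunit of Kv4, was higher below: its values were 217 and 232 above and 186 and 236 below (0.09 and 0.34). DPP10, another Kv4 partner, was also higher below (30.6 and 39.9, 0.38).

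KCNQ3 codes for a subunit of the M channel, which opens slowly near the threshold for firing and depends on PIP2. Its values were 34.1 and 28.7 above and 27.6 and 25.2 below (-0.25 and -0.13), and it reached the limit at neither site. KCNQ5, a related gene, had differences of 0.06 above and 0.22 below. KCNH2, the ERG channel that repolarizes the membrane, had 333 and 335 above, where alone it was listed. KCNH5 was lower above at values of 2.67 and 1.99 (-0.43).

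The silent subunits included the only gene that was higher above the lesion. KCNS2 had values of 3.58 and 4.65 above (0.37) and 2.98 and 3.40 below (0.19), all near the bottom of the table, where the offset makes differences smaller. KCNS3, which modifies Kv2 channels, held the highest KCNS value and was higher below: it had 84.4 and 98.6 above and 86.9 and 115 below (0.22 and 0.40). KCNG4, the KCNG gene of highest value, had 77.8 and 71.5 above and 95.4 and 108 below (-0.12 and 0.19). KCNG1 was higher below at 5.54 and 8.26 (0.58), and KCNF1, at values under 4 in every group, had 0.01 and 0.25. The 7 silent subunits had median differences of 0.01 above and 0.19 below.

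**Figure D2:**
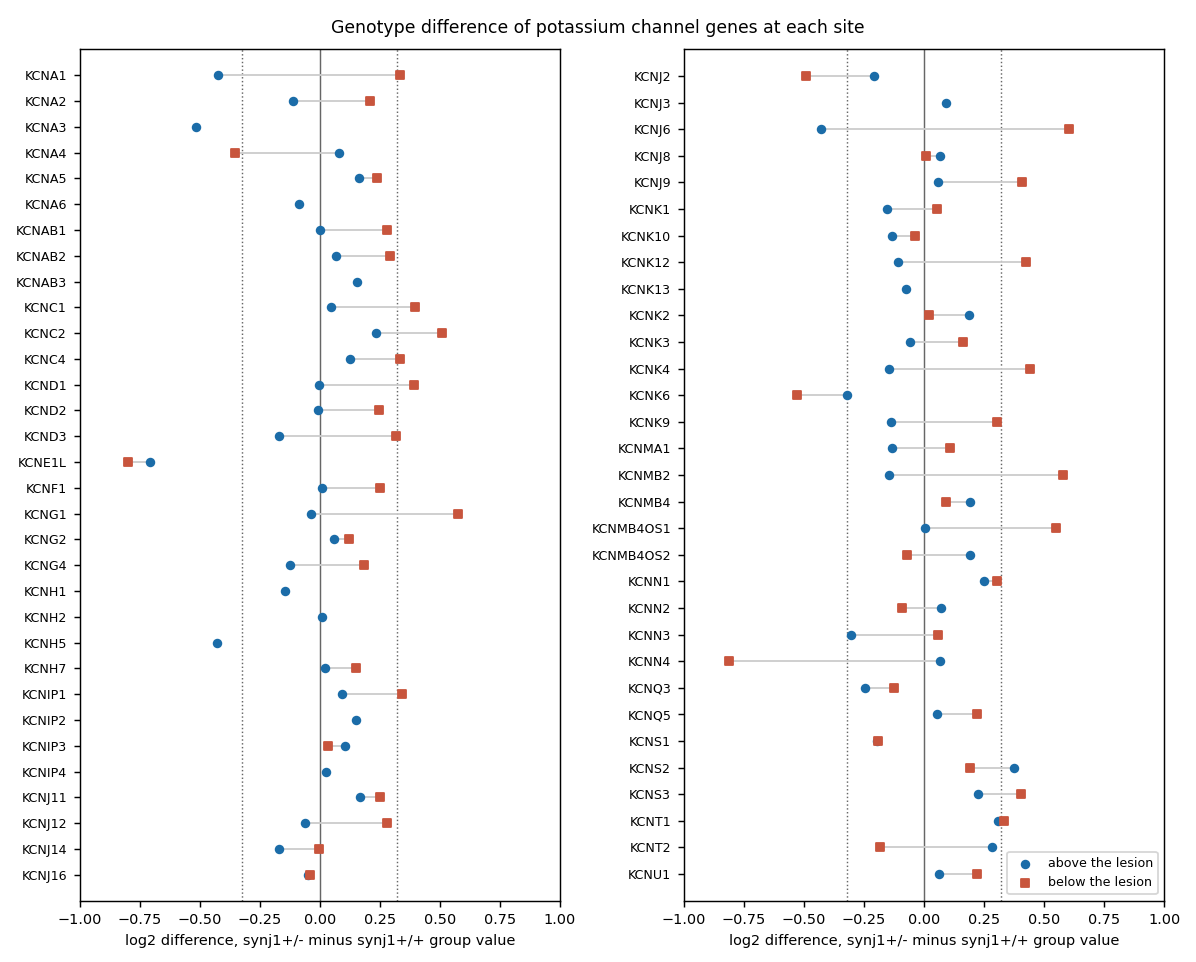
Log2 difference between the groups labelled synj1+/- and synj1+/+ (horizontal axis) of 63 of the potassium channel genes, in order of symbol, above (blue circles) and below the lesion (red squares); dotted lines mark the limit, and grey lines join the 2 sites. KCNC1, KCNC2 and KCNC4 lie right of the dotted line below the lesion and between the lines above it, and KCNE1L lies left of it at both sites.

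KCNT1 differed by a like amount at the 2 sites. It codes for Slack, a channel opened by intracellular sodium. Its values were 1680.1 and 2082 above and 1547 and 1951 below, differences of 0.31 and 0.33, which put it just short of the limit above the lesion and just past it below. Its relative KCNT2 had 33.2 and 40.4 above (0.28) and 32.5 and 28.6 below (-0.18), and so differed in sign between the sites without reaching the limit.

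Among the calcium-activated channels, KCNMA1, the pore of the BK channel, had 409 and 373 above and 353 and 381 below (-0.13 and 0.11). Its auxiliary subunit KCNMB2 was higher below at low values (5.93 and 8.86, 0.58), and KCNMB4, the neuronal beta subunit, was not (36.9 and 39.4, 0.09). KCNMB4OS1, which lies within KCNMB4 on the other strand, was at 7.55 and 11.0 below (0.55), and KCNMB4OS2, which overlaps the start of KCNMB4, at 3.77 and 3.59 (-0.07). The library kit does not mark strand, so reads of these transcripts and of KCNMB4 cannot be told apart where they overlap. KCNU1, a pH-gated relative of KCNMA1 known from sperm, was at 12.2 and 12.8 above and 8.20 and 9.55 below (0.06 and 0.22).

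The SK channel genes KCNN1 to KCNN3, whose channels follow calcium entry and slow repeated firing, stayed short of the limit at both sites. KCNN2 held the highest value of them, with 62.4 and 65.6 above and 59.2 and 55.6 below (0.07 and -0.09). KCNN4, the intermediate-conductance channel of microglia, blood and vessel cells, was lower below. Its values were 7.54 and 7.90 above (0.07) and 11.3 and 6.41 below (-0.81), the most negative difference of any potassium channel gene at either site.

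The inward rectifiers were split. KCNJ3, KCNJ6 and KCNJ9 code for the GIRK channels that G proteins open, and KCNJ3, of the highest KCNJ value, was listed above only (324 and 346, 0.09). KCNJ9 was even above (24.2 and 25.2, 0.06) and higher below (18.9 and 25.1, 0.41). KCNJ6 was lower above (17.4 and 12.9, -0.43) and higher below (9.62 and 14.6, 0.60), the largest positive difference below the lesion, at values under 20 in every group. KCNJ2, the classical inward rectifier Kir2.1, was lower below (6.54 and 4.66, -0.49). KCNJ16, which forms channels in glia, was even at both sites, with 119.8 and 116 above and 126 and 123 below (-0.05 and -0.04). KCNJ11 and KCNJ8, the pores of channels closed by ATP, had differences of 0.25 and 0.01 below.

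Leak channel genes had differences under 0 in 8 of 9 cases above the lesion (median -0.14) and over 0 in 6 of 8 cases below (median 0.11). Differences were over 0 for 49% of all genes above and 52.8% below, and for 43 of the 56 potassium channel genes listed below. KCNK1, with the highest value of this letter, had 114 and 103 above and 106 and 110.5 below (-0.15 and 0.05). KCNK4, the TRAAK channel of nodes of Ranvier, which opens with membrane stretch, was higher below: it had 22.5 and 20.3 above and 17.4 and 23.7 below (-0.14 and 0.44). KCNK12 was higher below at values of 9.33 and 12.5 (0.42). KCNK6 was lower at both sites, with 6.32 and 5.06 above and 7.31 and 5.07 below (-0.32 and -0.53), and above the lesion it only just reached the limit.

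KCNE1L was lower at both sites. It is X-linked, is also named KCNE5, and codes for an auxiliary subunit of a single membrane span that restrains Kv channels such as KCNQ1. Its values were 50.3 and 30.8 above and 58.8 and 33.8 below, so that it was 1.63-fold lower above and 1.74-fold lower below (-0.71 and -0.80). It was the only KCNE gene listed, and the only potassium channel gene with a group value of 20 or more that was lower below. Of the 12025 genes listed at both sites, 35, or 0.291%, were lower by at least as much at both.

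**Figure D3:**
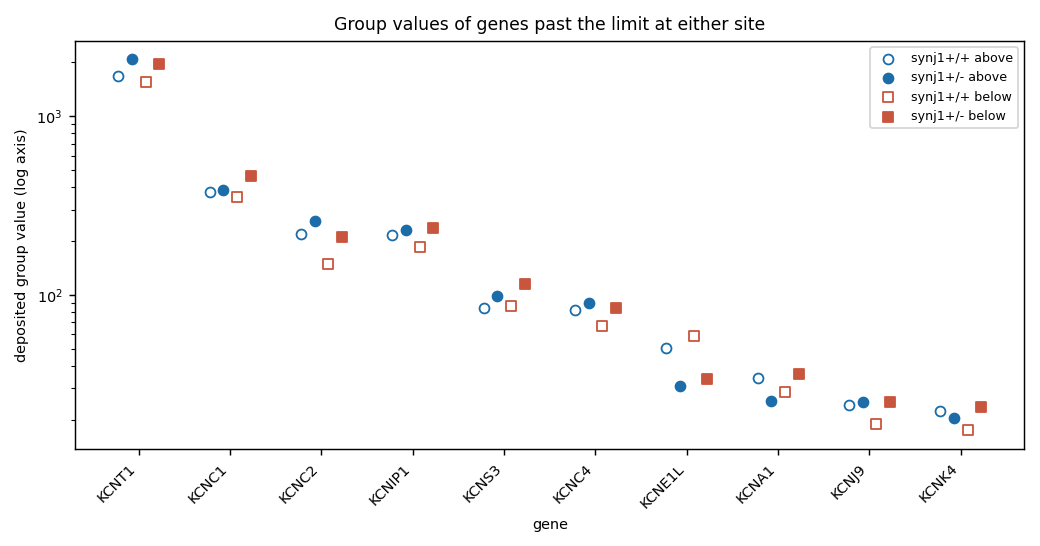
Deposited group values (log axis, no unit beyond the authors' scale) of 10 potassium channel genes that reached the limit at either site with a value of 20 or more; circles are above and squares below the lesion, open for the group labelled synj1+/+ and filled for synj1+/-, with 1 value per group and no error. The filled square lies over the open one in every gene shown but KCNE1L, where both filled symbols lie under the open ones.

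By role, the 40 pore-forming subunits listed below the lesion had a median of 0.23, with 11 higher and 4 lower, and the 7 auxiliary subunits had a median of 0.28, with 2 higher and 1 lower. Above the lesion the 48 pore-forming genes had a median of -0.05, with 0 higher and 5 lower, and the 10 auxiliary genes had 0.08, with 0 higher and 1 lower. Over all genes, 8.06% were higher and 11.5% lower below, and 4.18% and 7.45% above, so the counts of lower genes below lay near the share over all genes.

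The difference between the genotype labels was itself compared between the sites. For the 56 genes listed at both sites, the difference below minus the difference above was over 0 in 43 (53.9% of all genes), with a median of 0.19 against 0.02. It reached the limit over 0 in 16 (10% of all genes) and under 0 in 3 (10% of all genes). At a fold of 1.5 it did so over 0 in 5 and under 0 in 1 (2.3% and 3.38% of all genes). The animal numbers in the study's methods imply that both segments were taken from the same mice, so the sites are not independent, although the labels do not pair the libraries. Differences were over 0 at both sites in 24 genes, under 0 above and over 0 below in 19, the reverse in 5 and under 0 at both in 8. KCNA1 and KCNJ6 were lower above and higher below, as were 0.432% of all genes listed at both sites, and their site differences were 0.75 and 1.03. KCNE1L and KCNK6 were lower at both sites, as were 3.19% of all genes. No potassium channel gene was higher at both sites, where 1.01% of all genes were, and KCNT1 came closest.

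**Figure D4:**
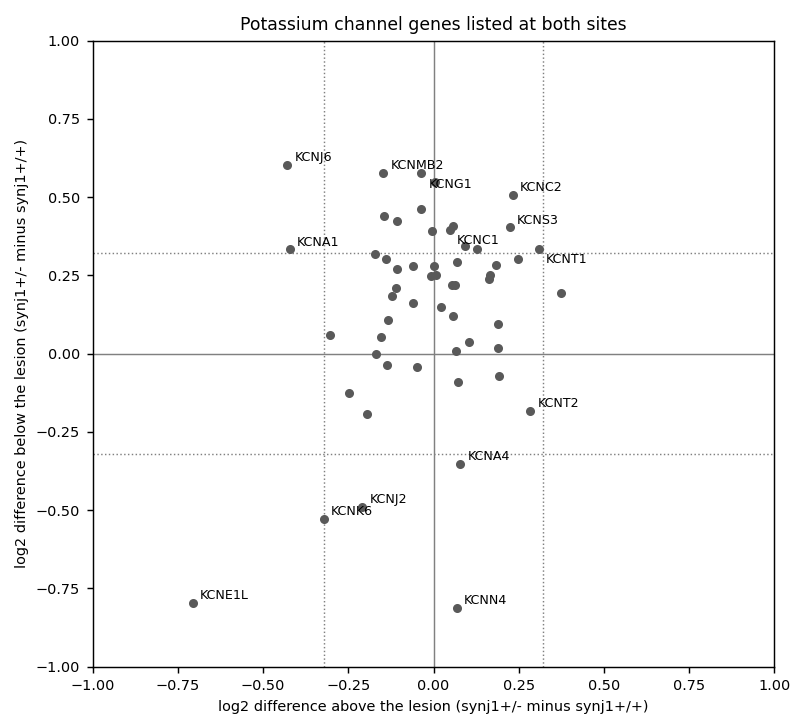
Log2 difference below the lesion (vertical axis) against the log2 difference above it (horizontal axis) for the 56 potassium channel genes listed at both sites, with dotted lines at the limit. Most points lie over the horizontal line at 0, KCNJ6 and KCNA1 lie at upper left, KCNE1L at lower left and KCNN4 at the bottom near the centre.

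Members close to the limit show how finely it divides them. Above the lesion KCNS2 (0.37) lay inside it and KCNT1 (0.31) outside on the higher side, and KCNK6 (-0.322) inside and KCNN3 (-0.30) outside on the lower side. Below the lesion KCNA1 (0.33) lay inside and KCND3 (0.319) outside, and on the lower side KCNA4 (-0.35) inside and KCNS1 (-0.19) outside. Above the lesion 28 of 67 genes were within 0.1 of 0, and below it 11 of 56 were.

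The level of a gene in the table was tied to how many transcript models it has. Over the 67 members, the value above the lesion under the label synj1+/+ had a Spearman correlation of 0.71 with the number of RefSeq models, and over 13537 genes it was 0.60. These are descriptions across genes of 1 group value, which share its libraries. Median values rose from 6.73 in the 17 members with 1 model to 48.0 in the 22 with 4 to 8 models and 217 in the 9 with 9 to 20, and over all genes from 11.4 to 55.7 and 137. Values were therefore not read as a scale per length between genes. KCNAB2 and KCNT1, both of high value, have 16 and 33 models, and the ratio of 2 groups for the same gene does not compare models between genes.

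**Figure D5:**
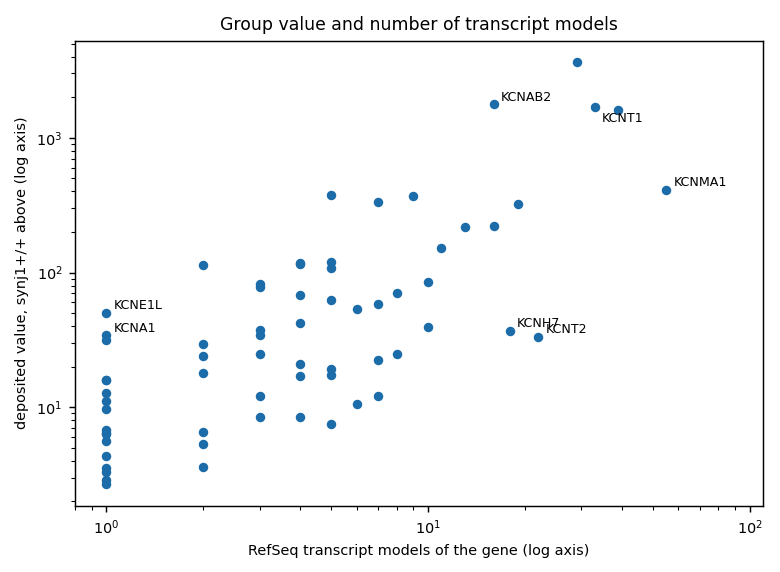
Deposited synj1+/+ value above the lesion (vertical log axis) against the number of RefSeq transcript models (horizontal log axis) of the 67 potassium channel genes, 1 point a gene. Values rise with the number of models, from a median of 6.73 at 1 model to 217 at 9 to 20 models.

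In the 45 genes of partners of potassium channels and of potassium transport, 1 was higher and 1 lower of 41 listed above (median 0.03), and 6 were higher and 1 lower of 33 listed below (median 0.15). Over all genes, 4.18% were higher and 7.45% lower above, and 8.06% and 11.5% below. The higher genes below included AMIGO1 and DPP10, named with their channels, the Kv1 scaffold DLG2 (504 and 639.5, 0.34), the sodium pump subunit ATP1B1, and SLC12A5. ATP1B1 had 519 and 579 above (0.16) and 518 and 661 below (0.35). SLC12A5 codes for KCC2, the exporter that keeps chloride low in neurons, and had 439.5 and 481 above (0.13) and 428 and 540.5 below (0.34). SLC12A7, a related exporter, was lower below (23.8 and 15.99, -0.57). Above the lesion CALM2, a calmodulin gene, was higher (413 and 529, 0.36), and NEDD4L, a ubiquitin ligase that acts on KCNQ channels, was lower (328 and 236, -0.48).

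Genes listed above the lesion only included KCNA3, KCNA6, KCNAB3, KCNH1, KCNH2, KCNH5, KCNIP2, KCNIP4, KCNJ3 and KCNK13. Of these, KCNA3 and KCNH5 were lower and 0 were higher, where 7.45% and 4.18% of all genes were. A further 28 coding genes have symbols that start with KCN in the GENCODE annotation of GRCm38, KCNQ1, KCNE1 to KCNE4 and KCNMB1 among them. They were not listed at either site and so could not be analysed.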

How the data were processed

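RNA-seq values were used for 12 libraries of injured male ApoE4 mice, grouped by labelled genotype and site, with 3 libraries a group. The authors' deposited table gives 1 value per gene and group, names no unit, and was read as holding normalized expression from Cuffdiff, not counts. Its lowest value is exactly 1, found 19 times, and it was read as an offset. Per the study's methods, reads were removed at random to equalize libraries within a site, mapped, and summarized with upper quartile normalization. The submitters' processing notes name STAR 2.5.4b, Cuffdiff 1.3.0 and GRCm38.p6. The table lists only tests marked as complete and holds 0 columns of single samples, so spread and precision are unknown. The methods state the read number to which libraries of each site were reduced, and the files give no depth per library. Its fold changes, p-values and q-values are the authors' own comparisons and were not used. The shorter list, cut by p-value, was not used either.

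Log2 differences of the group values were computed without a test, with the offset as deposited and a ratio of 5 to 4 as the limit, and set beside all genes of the site. Symbols were matched to GENCODE and RefSeq tables of GRCm38 (67 of 67 members). RefSeq windows of 250 bases before the start, outside chromosome 18, were searched for GGGCGG. At a site, 3 symbols were listed 2 times, and both rows were kept. Members given a sentence of their own hold the highest value of their letter, or reach the limit with a value of 20 or more. Others near the limit, listed at 1 site, or past it at lower values are also named, and further members (KCNA2, KCNAB1, KCNQ3, KCNQ5, KCNT2, KCNJ16, KCNJ8, KCNJ11 and KCNMB4) were chosen after their values were seen, to cover each role. The members and lists were chosen with earlier results of these data known. Partner genes were named at a value of 20 or more past the limit. Alternatives were another offset, 2 scalings, a value minimum, a limit at a fold of 1.5, genes listed at both sites, and channel subunits only. Python 3.11.15, numpy 2.4.6, pandas 2.3.3 and matplotlib 3.10.9 were used. Not all genes with KCN symbols are reported. ApoE3 libraries were not analysed here.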

Additional observations from a re-analysis of the deposited data

Results flagged for a closer look

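KCNA1 and KCNJ6 were singled out because the groups labelled synj1+/- and synj1+/+ differed by a ratio of 5 to 4 or more in opposite directions at the 2 sites. The log2 difference of KCNA1 was -0.42 above the lesion and 0.33 below it, a site difference of 0.75. That of KCNJ6 was -0.43 above and 0.60 below, a site difference of 1.03, at values under 20 in every group. With 1 value per group and no values of single samples, neither difference between sites was tested. Among 12025 genes with values at both sites, 52 (0.432%) were lower above and higher below, and 56 (0.466%) were the reverse.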

How the results depend on the processing

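Of 60 values recomputed under alternatives, 35 stayed within the set limits, 24 moved and 1 changed sign. With an offset of 0.1, the median log2 difference below was 0.26, the median site difference 0.20, and 5 members had a site difference past the limit under 0. Centring on the median of all genes gave medians of 0.0058 above, 0.22 below and 0.17 for the site difference, and scaling by the upper quartile gave 0.012, 0.21 and 0.16. Members higher below fell from 16 to 13 of 56 under both, where 7.27% and 6.84% of all genes were higher. Site differences past the limit over 0 stayed at 16 with centring and fell to 13 with the upper quartile (8.94% and 8.19% of all genes). With values of 20 or more, 0 members were higher and 2 lower above (median 0.021), 10 higher and 1 lower below (median 0.26), and 8 and 1 in the site difference (median 0.21). At a fold of 1.5, counts fell to 0 higher and 1 lower above, 1 higher and 2 lower below, and 5 and 1 for the site difference, so that the share higher below (1 of 56) was near the 1.16% of all genes. Without the opposite-strand transcripts, the median above was -0.0037 and so changed sign around 0. The median below stayed over 0 in each alternative for which it was computed.

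No paired analysis was possible because the table holds 1 combined value per group, the replicate numbers are not shared between groups, and the labels do not pair the sites, although the animal numbers in the methods imply shared mice. Leaving out replicates was not possible for the same reason. Libraries of a site were reduced to equal read numbers by the authors, values near the offset are least certain, and the smallest differences that replicates would resolve cannot be stated.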
